A study of Mus musculus with 12 samples.

Results

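The genes described are 10 colonic salt and water transporters, taken by gene symbol from a table of transcript abundances and summed over the transcripts of each gene. They were 10 of the 35688 genes listed. In 8 of them the protein takes up salt, potassium or water from the gut lumen: the sodium channel subunits Scnn1a, Scnn1b and Scnn1g, the proton-potassium pump subunit Atp12a, the exchangers Slc26a3, Slc9a2 and Slc9a3, and the water channel Aqp8. The other 2, Slc12a2 and Cftr, load and release chloride for fluid secretion.

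RNA was measured in the full-thickness colon, muscle wall included, of 2-week-old mice. One genotype lacked both Il10, which encodes interleukin 10, a cytokine that restrains inflammation, and Tnfr1 (Tnfrsf1a, the gene of TNF receptor 1), written Il10-/- Tnfr1-/- (6 libraries, replicates 1 to 6). The other lacked Il10 alone, written Il10-/- (5 libraries, replicates 1, 2, 3, 5 and 6). Every mouse therefore lacked Il10, and wild-type colon was not analysed here, so the comparison is of the loss of Tnfr1 on an Il10-/- background. The labels used here state neither sex nor litter, each library is labelled as a separate sample, and p-values measure the spread between these samples.

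The colon recovers salt and water from the stool. In the surface epithelium, sodium-proton exchange by Slc9a3 and Slc9a2 works beside chloride-bicarbonate exchange by Slc26a3, while in the distal colon sodium also enters through the epithelial sodium channel (ENaC), which is built from the products of Scnn1a, Scnn1b and Scnn1g and is controlled by aldosterone. Fluid secretion runs the other way: Slc12a2 brings chloride into crypt cells across the basolateral membrane and the Cftr channel lets it out into the lumen.

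Promoter sequence from RefSeq (build GRCm38.p6) was taken for 6 of the 10 genes. The 130 bases just before the annotated start are shown for Scnn1b and Scnn1g, neighbouring genes of 1 channel, and for Slc26a3 and Aqp8. Across libraries the log2 values of Scnn1b and Scnn1g gave a Pearson r of 0.42 (permutation p = 0.201, adjusted p = 0.336, n = 11). Slc26a3 and Aqp8 are absorptive genes that were both highest in the same library. Scnn1b lies at chr7:121864908-121865037, Scnn1g at chr7:121734349-121734478, Slc26a3 at chr12:31438089-31438218 and Aqp8 at chr7:123462164-123462293, all on the plus strand. Capitals mark matches, searched on both strands, to the GC box GGGCGG, the TATA box TATAAA and the HNF1 element GTTAAT; these motifs do not overlap one another here.
Scnn1b promoter: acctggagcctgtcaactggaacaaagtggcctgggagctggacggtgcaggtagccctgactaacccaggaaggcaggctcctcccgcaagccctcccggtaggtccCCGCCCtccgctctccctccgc
Scnn1g promoter: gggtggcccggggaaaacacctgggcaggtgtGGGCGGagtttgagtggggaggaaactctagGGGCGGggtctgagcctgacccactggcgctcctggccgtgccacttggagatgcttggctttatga
Slc26a3 promoter: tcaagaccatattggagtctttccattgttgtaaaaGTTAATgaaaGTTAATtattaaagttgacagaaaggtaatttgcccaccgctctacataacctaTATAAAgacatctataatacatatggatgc
Aqp8 promoter: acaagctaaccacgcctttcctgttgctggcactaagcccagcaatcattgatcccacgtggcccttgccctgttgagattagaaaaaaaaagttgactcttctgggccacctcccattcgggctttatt
The Slc26a3 stretch held 2 copies of GTTAAT, present in 3.21% of 32851 promoter windows of the same length, and 1 TATAAA, present in 6.83% of them. GGGCGG, found in 27.3% of windows, occurred 1 time before Scnn1b, on the minus strand, and 2 times before Scnn1g, while the Aqp8 window held none of the 3 motifs. Guanine and cytosine made up 66.9% of the Scnn1b window, 63.8% of the Scnn1g window, 31.5% of the Slc26a3 window and 49.2% of the Aqp8 window, against a median of 53.8% over all windows. A match is a run of letters and not a shown binding site.

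The values are deposited abundances, divided by transcript length, whose sum per library ranged between 804109 and 1378971; read depth is unknown because the files hold no counts. Tnfrsf1a lay between 12.0 and 17.0 in the Il10-/- Tnfr1-/- libraries and between 30.6 and 78.1 in the Il10-/- libraries, with no overlap and RNA still listed in every Il10-/- Tnfr1-/- library. Epithelial markers were present in every library, with a summed abundance of 4892 to 16072 in Il10-/- Tnfr1-/- colons and 5654 to 10922 in Il10-/- colons. The median sum was 6135 in Il10-/- Tnfr1-/- colons and 8238 in Il10-/- colons. By mean log2 value 6 of the 7 epithelial markers were lower in Il10-/- Tnfr1-/- colons, as were 5 of 6 goblet cell and 2 of 5 colonocyte markers. All 8 smooth muscle markers averaged higher in Il10-/- Tnfr1-/- colons, as did all 6 fibroblast and all 6 enteric neuron and glia markers. The summed smooth muscle abundance was 793 to 7839 in Il10-/- Tnfr1-/- colons and 171 to 3349 in Il10-/- colons. The fibroblast sum was 184 to 1532 in Il10-/- Tnfr1-/- colons and 47.2 to 361 in Il10-/- colons, and the neuron and glia sum 22.5 to 134.7 in Il10-/- Tnfr1-/- colons and 3.17 to 211.9 in Il10-/- colons. With the smooth muscle score as a term of the model, log2 fold changes were 0.99 for Slc26a3, 0.40 for Slc9a3 and 0.59 for Aqp8, against -0.16, -0.14 and -0.15 without it. The part of the fibroblast and neuron lists in the results was not tested.

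None of the 10 transporters differed between the genotypes at an adjusted p under 0.05 (limma on log2(value + 0.5), Benjamini-Hochberg adjustment over all 13561 genes tested). That was also true of every other gene, so 0% of genes were called, and the smallest adjusted p was 0.125, for Tnfrsf1a. Before adjustment, 1 of the 10 transporters had p under 0.05, against 8.34% of all genes (1131 genes): 1 was lower, against 3.6% of all genes, and 0 were higher, against 4.74%. In 0 of the 10 were the genotypes free of overlap, against 0.575% of all genes. By mean log2 value 3 transporters were higher in Il10-/- Tnfr1-/- colons and 7 were lower; 55.5% of all genes were higher. In whole colon, fewer cells of a type and less RNA per cell cannot be told apart.

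**Figure D1:**
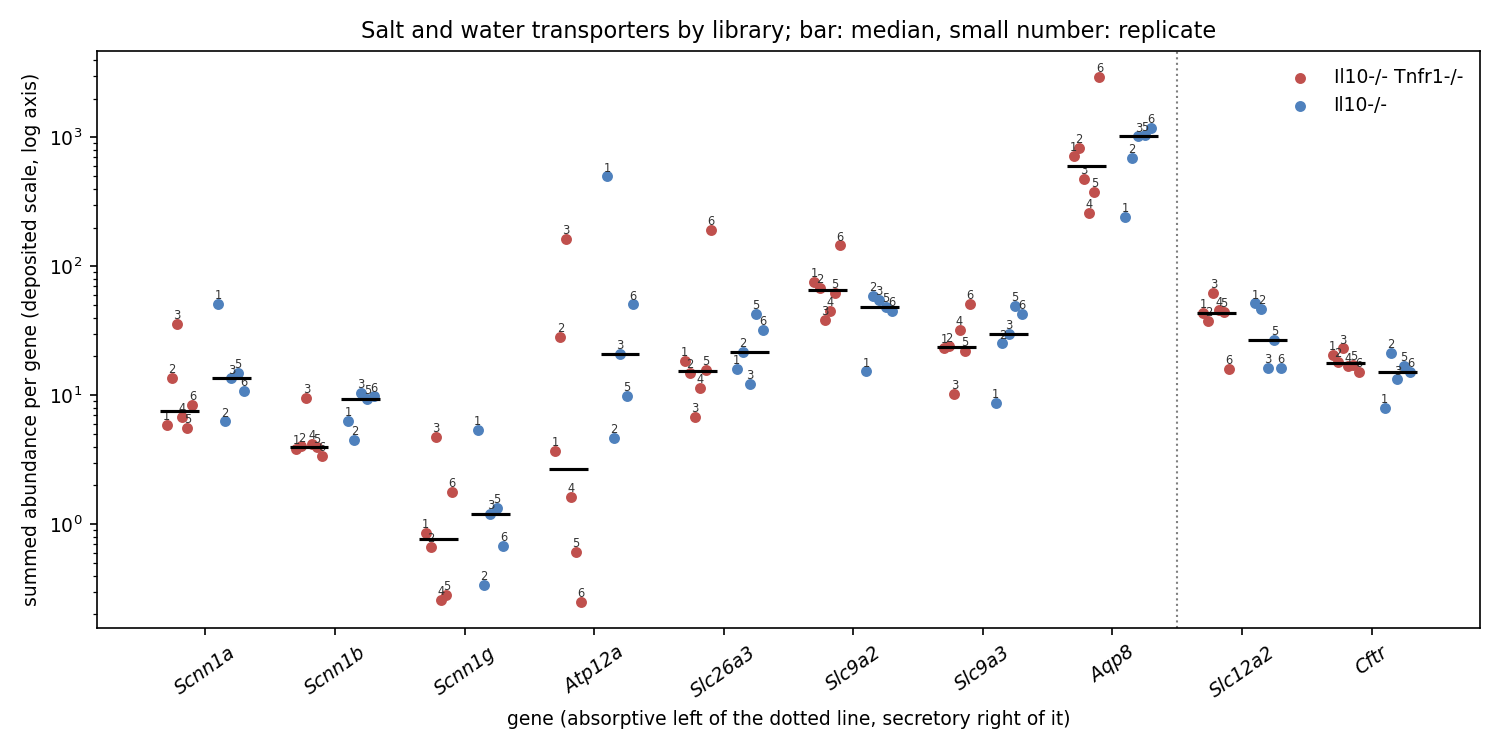
Summed abundance of each transporter (y axis, log scale, deposited abundance units) in each library, by gene (x axis). Points are libraries with their replicate number, Il10-/- Tnfr1-/- left of Il10-/-, and bars are medians. The genotypes overlap for all 10 genes, and Atp12a spreads most, between 0.248 and 498.4.

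Of the sodium channel genes, Scnn1b, which encodes the beta subunit, came nearest to a difference. Its abundance in Il10-/- Tnfr1-/- colons was lowest at 3.39, had a median of 3.98 and was highest at 9.54, against 6.36, 4.48, 10.5, 9.39 and 9.81 in Il10-/- replicates 1, 2, 3, 5 and 6, an order kept throughout. In 5 of 6 Il10-/- Tnfr1-/- libraries it lay below every Il10-/- library, and replicate 3 lay within their range. Its log2 fold change of -0.72 ± 0.28 (SE) had an unadjusted p of 0.0261 and an adjusted p of 0.536 in limma; an exact two-sided permutation test over the 462 assignments of the libraries gave p = 0.0411, where the smallest possible was 0.00216. Its leading transcript taken alone gave a log2 fold change of -0.47 with an unadjusted limma p of 0.169. For the whole gene the unadjusted p was over 0.05 without Il10-/- replicate 3 (0.0663), 5 (0.0616) or 6 (0.0626), without Il10-/- Tnfr1-/- replicate 6 (0.0530), and under 4 other alternatives, at 0.0551 to 0.122. Scnn1b (ENSMUSG00000030873; chr7:121865038-121918514, mm10, plus strand) overlaps Cog7 on the opposite strand, and no source used here says if the authors' quantification used strand.

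Scnn1a, the alpha subunit that ENaC needs to reach the membrane (ENSMUSG00000030340; chr6:125320659-125344943, plus strand), ranged between 5.60 and 35.8 with a median of 7.61 in Il10-/- Tnfr1-/- colons. In Il10-/- colons it was 51.4, 6.27, 13.5, 15.0 and 10.9. Il10-/- Tnfr1-/- replicate 3 and Il10-/- replicate 1 stood above all other libraries, and the genotypes overlapped. Its log2 fold change was -0.56 ± 0.54 (adjusted p = 0.642, limma), which became -0.12 without Il10-/- replicate 1 and -0.92 without Il10-/- Tnfr1-/- replicate 3.

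Scnn1g, the gamma subunit (ENSMUSG00000000216; chr7:121734479-121768475, plus strand), was the least abundant of the 10. It was 0.257 at the lowest, 0.761 at the median and 4.75 at the highest in Il10-/- Tnfr1-/- colons, against 5.40, 0.339, 1.20, 1.35 and 0.679 in Il10-/- colons. The same pair of libraries held its highest values. Since 5 libraries passed a value of 1, it just met the filter on low values. Its log2 fold change was -0.26 ± 0.58 (adjusted p = 0.846, limma), and it was -0.53 without Il10-/- replicate 2 and -0.06 without Il10-/- Tnfr1-/- replicate 4.

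The 3 subunits did not keep a fixed ratio. The abundance of Scnn1a divided by that of Scnn1b was 1.52, 3.39, 3.75, 1.63, 1.42 and 2.49 in Il10-/- Tnfr1-/- replicates 1 to 6. It was 8.08, 1.40, 1.29, 1.60 and 1.11 in Il10-/- replicates 1, 2, 3, 5 and 6. Il10-/- replicate 1, with the highest Scnn1a, therefore held a Scnn1b abundance of only 12.4% of its Scnn1a.

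Atp12a, the catalytic subunit of the colonic proton-potassium pump (ENSMUSG00000022229; chr14:56365068-56388550, plus strand), varied far more than any other member. In Il10-/- Tnfr1-/- colons it was 3.73, 28.3, 162.7, 1.63, 0.610 and 0.248 in replicates 1 to 6. In Il10-/- colons it was 498.4, 4.64, 20.9, 9.96 and 50.7. Over all libraries this was a 2006-fold range, and 4 of 6 Il10-/- Tnfr1-/- libraries lay below every Il10-/- library while replicate 3 was the second highest of all. The log2 fold change was -2.44 ± 1.46, with a 95% interval between -5.63 and 0.74 and an adjusted p of 0.537 (limma); it was -1.44 without Il10-/- replicate 1 and -3.41 without Il10-/- Tnfr1-/- replicate 3. Gm10873 overlaps Atp12a on the opposite strand.

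Slc26a3, also called DRA, exchanges luminal chloride for bicarbonate (ENSMUSG00000001225; chr12:31390871-31473917, plus strand, with Gm9359 inside its span on the same strand). It was 6.81 at the lowest, 15.3 at the median and 190.8 at the highest in Il10-/- Tnfr1-/- colons, against 16.0, 21.6, 12.3, 42.8 and 32.3 in Il10-/- colons. The highest value was that of Il10-/- Tnfr1-/- replicate 6, and no other library of either genotype passed 42.8. With that library included the mean was higher in Il10-/- Tnfr1-/- colons, 43.0 ± 72.5 against 25.0 ± 12.5 in Il10-/- colons (SD, n = 6 and n = 5), while the log2 fold change was -0.16 ± 0.69 (adjusted p = 0.921, limma). Without replicate 6 the log2 fold change was -0.80.

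Of the sodium-proton exchangers, Slc9a2 (NHE2; ENSMUSG00000026062; chr1:40680574-40769273, plus strand) was the only absorptive gene with a positive log2 fold change. Its values there were 38.4 at the lowest, 65.1 at the median and 145.1 at the highest, against 15.3, 59.4, 54.8, 48.7 and 45.4 in Il10-/- colons. In 4 of 6 Il10-/- Tnfr1-/- libraries Slc9a2 exceeded every Il10-/- library, and the other 2 lay inside the Il10-/- range. The log2 fold change was 0.69 ± 0.39 (adjusted p = 0.536, limma) and 0.34 without Il10-/- replicate 1, the lowest library. Gm37623 overlaps Slc9a2 on the opposite strand.

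Slc9a3 (NHE3; ENSMUSG00000036123; chr13:74121457-74169442, plus strand), the main apical sodium-proton exchanger of intestinal absorption, overlapped over most of its range between the genotypes. It was 10.2 at the lowest, 23.7 at the median and 51.3 at the highest in Il10-/- Tnfr1-/- colons, against 8.70, 25.3, 30.0, 49.0 and 43.0 in Il10-/- colons. The log2 fold change was -0.14 ± 0.45, with a 95% interval between -1.12 and 0.84 (adjusted p = 0.895, limma). The lowest libraries were Il10-/- replicate 1 and Il10-/- Tnfr1-/- replicate 3, which were the highest for Scnn1a.

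Aqp8, a water channel of colonic surface cells (ENSMUSG00000030762; chr7:123462291-123468004, plus strand), was the most abundant member. It was 261 at the lowest, 599 at the median and 2942 at the highest in Il10-/- Tnfr1-/- colons, against 244, 697, 1017, 1037 and 1186 in Il10-/- colons. Il10-/- Tnfr1-/- replicate 6 stood alone at the top, and 3 of the 5 Il10-/- libraries exceeded each remaining Il10-/- Tnfr1-/- library. The mean was 934 ± 1006 in Il10-/- Tnfr1-/- colons and 836 ± 376 in Il10-/- colons (SD, n = 6 and n = 5), whereas the log2 fold change was -0.15 ± 0.59 (adjusted p = 0.911, limma) and -0.58 without replicate 6.

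The 2 secretory genes averaged higher in Il10-/- Tnfr1-/- colons, within the spread of the libraries. Slc12a2 (NKCC1; ENSMUSG00000024597; chr18:57878678-57946821, plus strand) was 15.9 at the lowest, 43.8 at the median and 62.6 at the highest in Il10-/- Tnfr1-/- colons, against 51.6, 46.6, 16.3, 27.0 and 16.3 in Il10-/- colons. All Il10-/- Tnfr1-/- libraries but replicate 6 lay at 37.9 or above, as did 2 of the 5 Il10-/- libraries. Its log2 fold change was 0.46 ± 0.39 (adjusted p = 0.607, limma), and it was 0.26 without Il10-/- replicate 3 and 0.71 without Il10-/- Tnfr1-/- replicate 6.

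Cftr, the chloride and bicarbonate channel mutated in cystic fibrosis (ENSMUSG00000041301; chr6:18170687-18322768, plus strand), was the steadiest member. Its values were 15.1 at the lowest, 17.7 at the median and 23.1 at the highest in Il10-/- Tnfr1-/- colons, against 7.97, 21.2, 13.3, 17.0 and 15.2 in Il10-/- colons. Only Il10-/- replicate 1 fell below 13. The log2 fold change was 0.35 ± 0.22, with a 95% interval between -0.12 and 0.83 (adjusted p = 0.537, limma), and it was 0.15 without Il10-/- replicate 1. Gm15592 overlaps Cftr on the opposite strand and Gm15595 on the same strand.

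**Figure D2:**
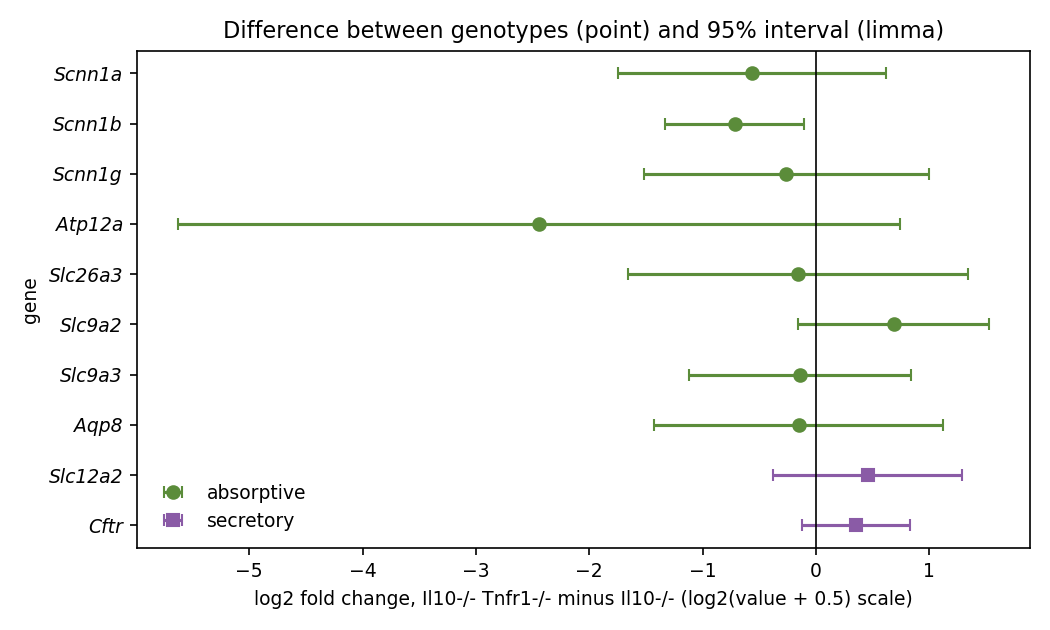
Log2 fold change of each transporter, Il10-/- Tnfr1-/- minus Il10-/- (x axis, on the log2(value + 0.5) scale), by gene (y axis); points are limma estimates and lines their unadjusted 95% intervals. Only the interval of Scnn1b, -1.33 to -0.10, leaves out 0, and that of Atp12a is the widest.

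Set against each other, absorptive genes had a median log2 fold change of -0.21 and secretory genes one of 0.40, beside a median of 0.05 over all genes tested. Per library, the mean log2 value of the 8 absorptive genes minus that of the 2 secretory genes was -0.94, -0.32, -0.43, -1.33, -1.37 and 0.73 in Il10-/- Tnfr1-/- replicates 1 to 6. It was 0.50, -1.04, 0.68, 0.33 and 0.85 in Il10-/- replicates 1, 2, 3, 5 and 6. In each genotype 1 library went against the others: Il10-/- Tnfr1-/- replicate 6 was positive and Il10-/- replicate 2 negative. The mean was -0.61 ± 0.79 in Il10-/- Tnfr1-/- colons and 0.26 ± 0.75 in Il10-/- colons (SD, n = 6 and n = 5), a difference of -0.87 on the log2 scale that is given as a description, since the genes were chosen with earlier results known. Its parts were an absorptive mean of 4.15 ± 0.61 in Il10-/- Tnfr1-/- colons against 4.62 ± 0.39 in Il10-/- colons, and a secretory mean of 4.76 ± 0.42 in Il10-/- Tnfr1-/- colons against 4.36 ± 0.43 in Il10-/- colons. Of the 8 absorptive genes, Atp12a had the log2 fold change farthest from 0, at -2.44, so it weighed most in the difference of the absorptive means. The other absorptive genes lay between -0.72 for Scnn1b and 0.69 for Slc9a2. The difference without Atp12a was not computed.

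Across all 11 libraries the order of abundance per length was Aqp8, Atp12a, Slc9a2, Slc12a2, Slc26a3, Slc9a3, Cftr, Scnn1a, Scnn1b and Scnn1g, with means of 889.6, 71.1, 59.8, 37.0, 34.8, 29.0, 16.9, 15.7, 6.31 and 1.60. Scnn1a exceeded Scnn1b, and Scnn1b exceeded Scnn1g, in 11 of 11 libraries. Aqp8 exceeded Atp12a in 10 of 11 and Slc9a3 exceeded Cftr in 10 of 11. Other neighbours were not separated by their spread: Atp12a exceeded Slc9a2 in only 3 of 11 libraries and Slc26a3 exceeded Slc9a3 in only 2 of 11, so that single high libraries set the order of these means, and Slc9a2 over Slc12a2, Slc12a2 over Slc26a3 and Cftr over Scnn1a held in 8 of 11 each. Atp12a had the largest spread of the set, with an SD of 2.96 on the log2 scale, larger than that of 99.9% of the genes tested. The SD of Slc26a3 was 1.25, of Aqp8 1.05 and of both Scnn1a and Scnn1g 1.02, beside a median of 0.43 over all genes; at 0.40, Cftr was the only member below that median.

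The same few libraries were the highest or lowest for several transporters. Il10-/- Tnfr1-/- replicate 3 and Il10-/- replicate 1 were the highest libraries of their genotype for Scnn1a, Scnn1g and Atp12a and the lowest for Slc9a3 and Slc9a2. They were also the highest of their genotype for Hoxb13, a homeobox gene expressed in the hindmost gut, at 63.4 in Il10-/- Tnfr1-/- replicate 3 and 140.5 in Il10-/- replicate 1, and for Hoxd13, another such gene, at 4.65 and 56.0 in the same libraries. In no other library did Hoxd13 pass 1.41. Hoxd11, of the same marker list, was 0.817 in Il10-/- Tnfr1-/- replicate 3, the lowest of that genotype, and 6.24 in replicate 4, its highest; in Il10-/- replicate 1 it was 11.5, the highest of all. Il10-/- Tnfr1-/- replicate 6 was the reverse: it held the highest Slc26a3, Slc9a2, Slc9a3 and Aqp8 of the 11 libraries and the lowest Atp12a and Slc12a2, with Hoxb13 at 0.0332 and Car1, a carbonic anhydrase of colonocytes, at 32160 against at most 3564 elsewhere. Whether the pieces of colon differed in position was not tested.

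**Figure D3:**
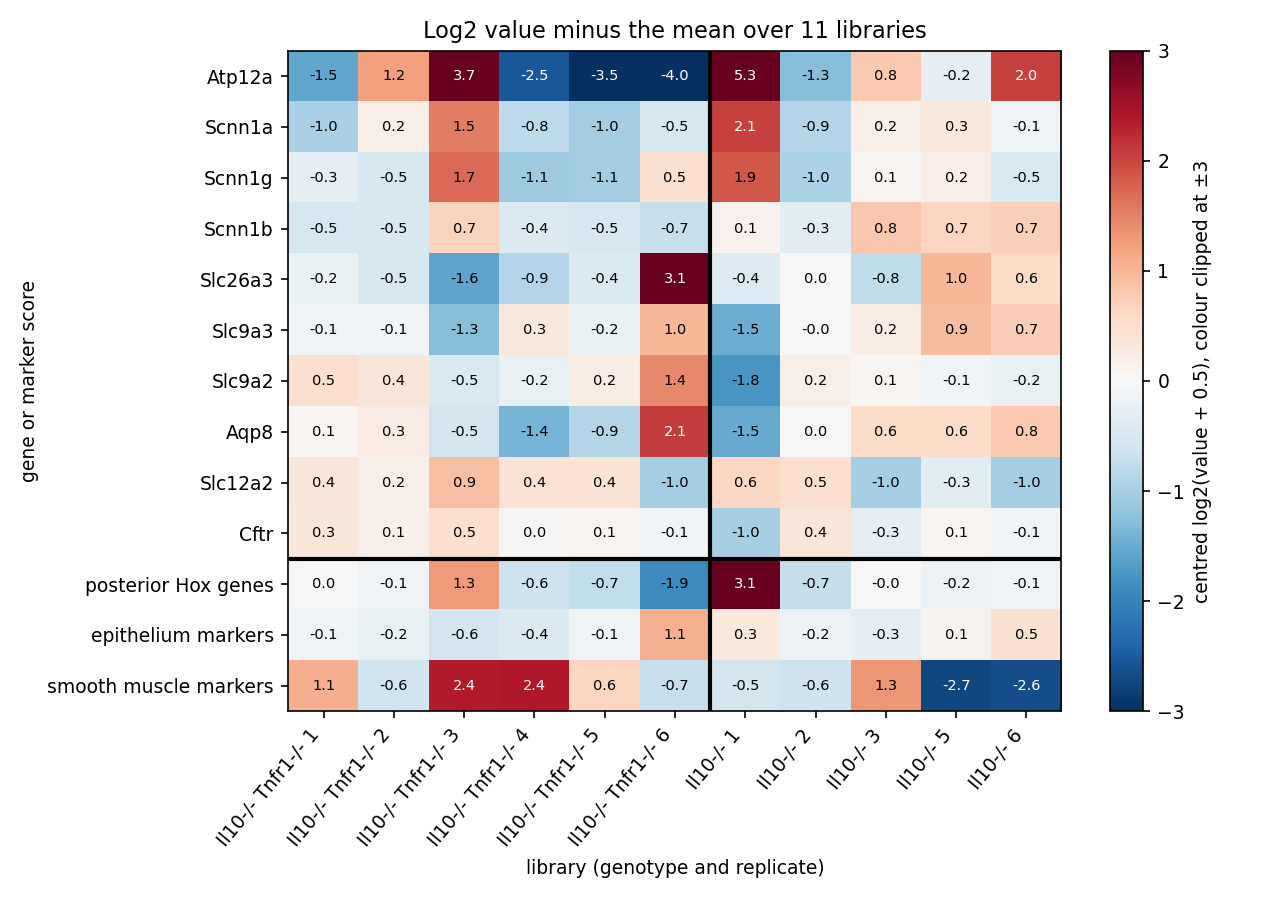
Log2(value + 0.5) of each transporter, and mean log2 value of 3 marker lists, minus the mean over the 11 libraries (colour and printed numbers), by library (x axis, Il10-/- Tnfr1-/- left of the black line). Atp12a, Scnn1a and Scnn1g are high with the posterior Hox genes in Il10-/- Tnfr1-/- replicate 3 and Il10-/- replicate 1, and Slc26a3 and Aqp8 are high in Il10-/- Tnfr1-/- replicate 6.

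Relations across the 11 libraries were computed for all 45 pairs of transporters and for each transporter against 3 marker scores, 75 relations in all, with 100000 permutations each and Benjamini-Hochberg adjustment over the 75. Pearson's r had an adjusted p under 0.05 in 10 of them and Spearman's rho in 3. Atp12a rose with the posterior score, the mean log2 value of Hoxa13, Hoxb13, Hoxd11, Hoxd12 and Hoxd13 (Pearson r = 0.89, p = 4e-05, adjusted p = 0.003; Spearman rho = 0.81, p = 0.00373, adjusted p = 0.0699; permutation tests, n = 11). Without the 2 libraries farthest from the median score, Il10-/- Tnfr1-/- replicate 6 and Il10-/- replicate 1, r was 0.82. For every relation with this score those 2 were the ones left out. Il10-/- Tnfr1-/- replicate 3, with a score of 2.72, stayed in, and r without it was not computed. Scnn1a gave r = 0.85 with the same score (permutation p = 0.00168, adjusted p = 0.0184; rho = 0.62, p = 0.0476, adjusted p = 0.255; n = 11) and r = 0.87 without the 2 farthest libraries. Slc9a2 fell with it (r = -0.90, permutation p = 0.00111, adjusted p = 0.0166; rho = -0.50, p = 0.122, adjusted p = 0.369; n = 11), but r was -0.44 without the 2 farthest libraries, so that relation rests on them. Slc9a3 also fell with the posterior score (r = -0.82, permutation p = 0.00235, adjusted p = 0.0196, n = 11). Its rho was -0.61 (permutation p = 0.0517, adjusted p = 0.259), and r was -0.60 without the 2 farthest libraries.

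Among the transporters themselves, Aqp8 and Slc12a2 ran opposite to each other (r = -0.80, permutation p = 0.00203, adjusted p = 0.019; rho = -0.87, p = 0.001, adjusted p = 0.025; n = 11), and r was -0.72 without the 2 libraries farthest on Aqp8. Slc9a3 gave r = -0.76 with Slc12a2 (permutation p = 0.00791, adjusted p = 0.0539; rho = -0.76, p = 0.00848, adjusted p = 0.0909; n = 11) and -0.72 without the 2 farthest. Scnn1a rose with Atp12a (r = 0.89, permutation p = 0.00026, adjusted p = 0.00975; rho = 0.80, p = 0.00476, adjusted p = 0.0714; n = 11; 0.71 without the 2 farthest). Scnn1a and Scnn1g gave r = 0.90 (permutation p = 0.00092, adjusted p = 0.0166; rho = 0.73, p = 0.0143, adjusted p = 0.134; n = 11), which was 0.57 without Il10-/- Tnfr1-/- replicate 3 and Il10-/- replicate 1. Atp12a and Slc9a2 gave r = -0.79 (permutation p = 0.00172, adjusted p = 0.0184, rho = -0.67 with adjusted p = 0.183), and r was -0.55 without the 2 farthest. Slc26a3 and Aqp8 gave r = 0.77 (permutation p = 0.00559, adjusted p = 0.0419, rho = 0.62 with adjusted p = 0.255), and r was 0.43 without the 2 farthest. Slc26a3 rose with the epithelium score, the mean log2 value of 7 epithelial markers (r = 0.91, permutation p = 5e-04, adjusted p = 0.0125; rho = 0.87, p = 0.00096, adjusted p = 0.025; n = 11; 0.70 without the 2 farthest). With the smooth muscle score, the mean log2 value of 8 markers, it ran opposite in rank (rho = -0.88, permutation p = 0.00075, adjusted p = 0.025; r = -0.61, p = 0.0422, adjusted p = 0.132; n = 11; r = -0.44 without the 2 farthest). Sample names fall into runs by their first digit, which the labels do not explain; the largest run, names starting with 1, holds 5 libraries, fewer than the 6 required here for a correlation. Names starting with 2 or 3 are all Il10-/- Tnfr1-/- (replicates 3 to 6) and those starting with 4 all Il10-/- (replicates 5 and 6), so that for these 6 libraries run and genotype cannot be told apart.

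**Figure D4:**
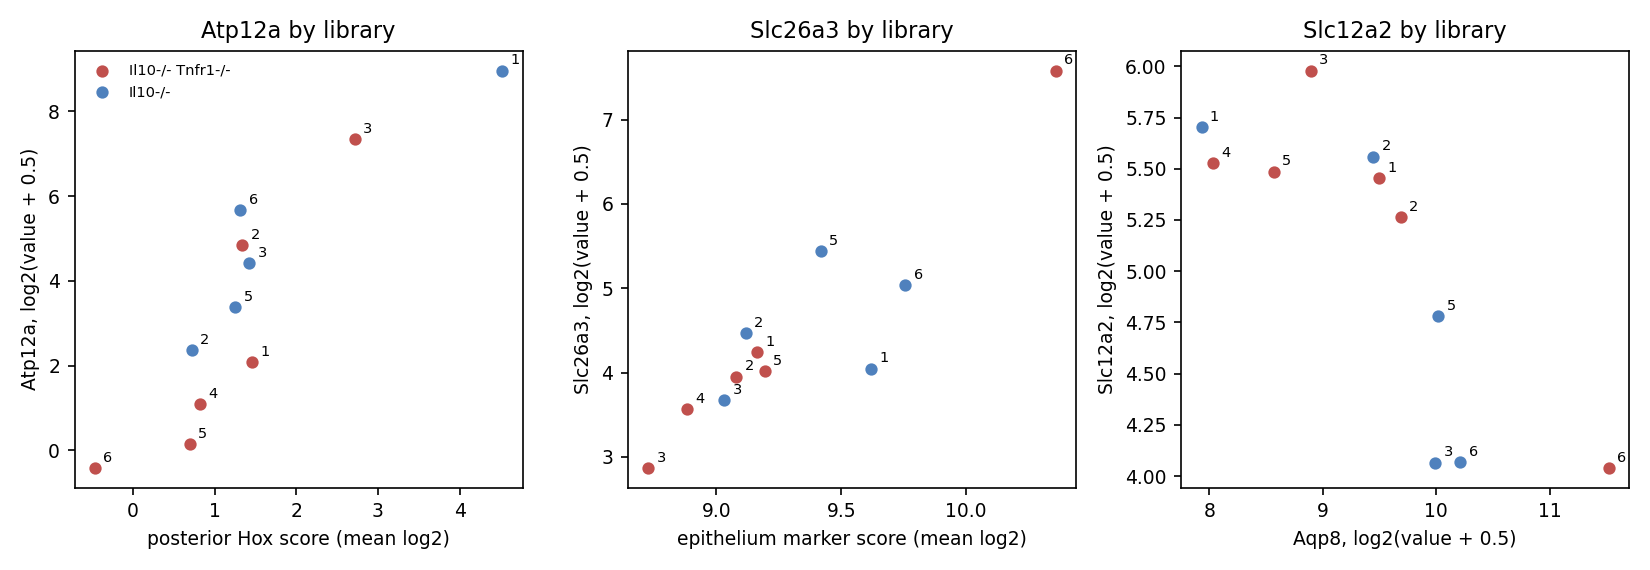
Each panel plots 1 gene on the log2(value + 0.5) scale (y axis) against a marker score or another gene (x axis, log2), with 1 point per library and its replicate number, coloured by genotype. Atp12a climbs with the posterior Hox score (r = 0.89), Slc26a3 with the epithelium score (r = 0.91), and Slc12a2 is lower where Aqp8 is high (r = -0.80).

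At the transcript level, 37 transcripts of the 10 genes were listed and 13 passed the filter on low values. None of the 13 had an adjusted p under 0.05, or an unadjusted one, in limma over 27895 transcripts, of which 0% passed after adjustment and 6.27% before it. Aqp8 was divided between a coding transcript and ENSMUST00000206106.1, annotated as a processed transcript without a coding sequence. This second form carried 5.57% of Aqp8 abundance at the lowest, 28.7% at the median and 51.6% at the highest in Il10-/- Tnfr1-/- colons, against 12.9%, 28.8%, 73.2%, 55.0% and 72.3% in Il10-/- colons. Its mean share was 27.8% ± 16.9 in Il10-/- Tnfr1-/- colons and 48.4% ± 26.8 in Il10-/- colons (SD, n = 6 and n = 5), and an exact two-sided permutation test gave p = 0.145. Estimates that divide reads between overlapping transcripts carry an error that the files used do not state.

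**Figure D5:**
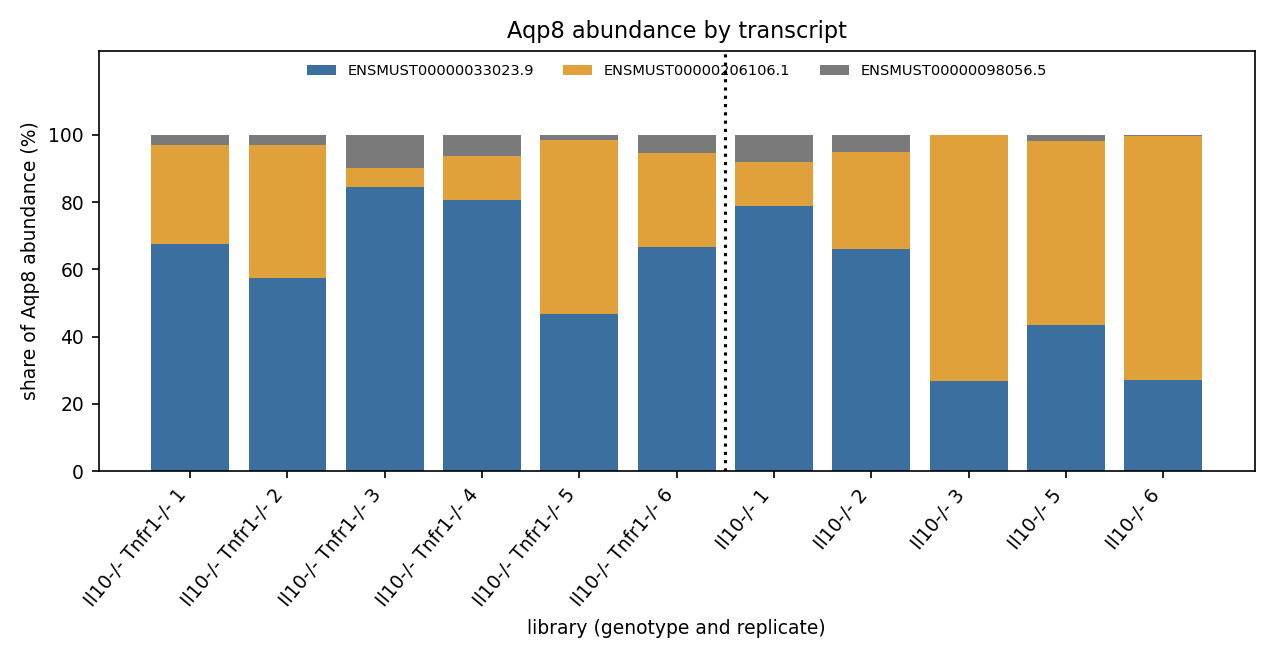
Share of Aqp8 abundance (y axis, percent) on each of its 3 transcripts, by library (x axis, Il10-/- Tnfr1-/- left of the dotted line). ENSMUST00000206106.1 ranges from 5.57% in Il10-/- Tnfr1-/- replicate 3 up to 73.2% in Il10-/- replicate 3.

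Scnn1b also split, between its main coding transcript and ENSMUST00000205520.1, annotated for nonsense-mediated decay. The decay form made up 4.55% at the lowest, 12.7% at the median and 19.8% at the highest in Il10-/- Tnfr1-/- colons, against 14.6%, 34.1%, 28.3%, 26.9% and 27.8% in Il10-/- colons. In 4 of the 5 Il10-/- libraries the share exceeded that of every Il10-/- Tnfr1-/- library. The exact two-sided permutation p was 0.0108, but the adjusted p was 0.727 over the 8610 genes whose leading transcript averaged under 90% of the gene, of which 0% passed after adjustment and 4.27% before it. In abundance the decay form averaged 0.508 in Il10-/- Tnfr1-/- colons and 2.13 in Il10-/- colons, and the coding form 4.31 and 5.97. The genotypes did not overlap for the decay form, by a gap from 0.764 in Il10-/- Tnfr1-/- replicate 1 to 0.929 in Il10-/- replicate 1. Among transcripts that passed the filter 0.416% did not overlap, but that set leaves the decay form out. No such share was computed for low transcripts, and the decay form was picked after its values were seen. The decay form missed the filter on low values and was not tested, but it is part of the Scnn1b sum. The short processed transcript ENSMUST00000221410.1 of Slc9a3 went the other way, with a mean share of 14.8% ± 4.99 in Il10-/- Tnfr1-/- colons and 7.82% ± 2.94 in Il10-/- colons (SD, n = 6 and n = 5; exact p = 0.0260, adjusted p = 0.727). In the authors' deposited table, the leading transcript of each of the 10 genes had a q value between 0.684 and 0.783. For Slc26a3 the authors' log2 fold change of that transcript was 0.48, where limma gave -0.15. For the leading transcript of every other member both values had the same sign. That of Aqp8 was 0.76 in the authors' table and 0.43 in limma, whereas the summed gene gave -0.15. How the authors computed their fold change is not given.

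The genes that control, feed or accompany these transporters gave the same count of calls, 0 in each of 5 lists. Of 14 genes listed under sodium channel regulation, 7 averaged higher and 7 lower in Il10-/- Tnfr1-/- colons, with a median log2 fold change of -0.01, and 2 had an unadjusted p under 0.05. Over all genes tested, 55.5% averaged higher, the median was 0.05 and 8.34% had an unadjusted p under 0.05. Tmprss4, a membrane serine protease that can activate the channel, averaged 84.9 ± 19.9 in Il10-/- Tnfr1-/- colons and 126.2 ± 35.2 in Il10-/- colons (SD, n = 6 and n = 5; log2 fold change -0.56 ± 0.22, adjusted p = 0.536 in limma). Nedd4l, the ubiquitin ligase that removes the channel from the membrane, averaged 32.9 ± 5.70 in Il10-/- Tnfr1-/- colons and 26.0 ± 3.35 in Il10-/- colons (log2 fold change 0.33 ± 0.15, adjusted p = 0.536 in limma). Prss8, a channel-activating protease, had a log2 fold change of -0.38 ± 0.18.

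Of 12 basolateral pumps, exchangers and channels, 6 averaged higher and 6 lower, where 55.5% of all genes were higher. An unadjusted p under 0.05 was held by 2 of them in limma, against 8.34% of all genes. Slc4a4, the sodium-bicarbonate cotransporter that loads bicarbonate into epithelial cells, was 4.70 at the lowest and 8.92 at the highest in Il10-/- Tnfr1-/- colons, against 2.18, 6.96, 2.62, 2.96 and 1.34 in Il10-/- colons. Only Il10-/- replicate 2 reached into the Il10-/- Tnfr1-/- range. Its log2 fold change of 1.13 ± 0.31 had an adjusted p of 0.536 in limma. Clcn2, a basolateral chloride channel, had a log2 fold change of -0.56 ± 0.30.

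Of 9 secretagogue and anion channel genes that passed the filter, 4 averaged higher and 5 lower. Over all genes, 55.5% were higher and 8.34% had an unadjusted p under 0.05 in limma. Ptger4, a prostaglandin E receptor, had a log2 fold change of 0.48 ± 0.21 and was the only one with an unadjusted p under 0.05 (adjusted p = 0.536 in limma). Best2, a bestrophin anion channel of colonic goblet cells, gave -0.99 ± 0.69 and Guca2b, the hormone uroguanylin, -0.60 ± 0.53. Best2 reached 40.9 in Il10-/- Tnfr1-/- replicate 3, the highest library, and 26.9 in Il10-/- replicate 1, the next. Of 9 apical exchangers, scaffolds and anion transporters, 6 averaged higher and 3 lower and none had an unadjusted p under 0.05; the smallest p belonged to the scaffold Pdzd3 (log2 fold change -0.53), the exchanger Slc9a8 (-0.21) and the sulfate transporter Slc26a2 (0.39). Of 7 other aquaporins, 3 passed the filter, namely Aqp1 (0.75), Aqp11 (0.38) and Aqp4 (-0.59).

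The genes whose log2 values followed each transporter most closely over the 11 libraries are given as a description, with Pearson's r over the same 11 libraries, whose tissue makeup differed. For Scnn1a they were Dctn1 (0.96) and Mgat4a (0.94), for Scnn1b Ercc4 and Adcy2 (0.92 each), for Scnn1g Lrp10 (0.94) and Il1rn (0.92), and for Atp12a Apoc2 (0.96) and Nlrp10 (0.95). For Slc26a3 they were Gpr160 (0.96) and Fyb2 (0.95), for Slc9a2 Ces2c (0.99) and Cyp3a13 (0.98), for Slc9a3 Cdc42ep2 (0.92) and Daglb (0.91), and for Aqp8 Tst (0.94) and Arhgap27 (0.93). Slc12a2 was followed most closely by Camk1d and Creb3l1 (0.96 each) and Cftr by Lrp4 (0.96) and Cers6 (0.95).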

How the data were processed

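Bulk RNA was measured in colon of Il10-/- Tnfr1-/- and Il10-/- mice with stranded mRNA libraries read from one end, per the labels' protocols. CASAVA, kallisto, sleuth and the build mm10 are named in the submitters' processing notes; versions and settings are not given in the sources used here. Each deposited abundance per transcript is a never-negative signal scaled by the authors, and not a count. Per the file headers, the table also holds the authors' comparison: a p-value and q-value per transcript, a fold as a ratio and on the log2 scale, and a mean on a natural log scale. That natural log mean minus the mean log abundance had a slope of 1.19 on log transcript length over 14706 transcripts (r = 0.99), so the deposited signal was divided by length.

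Of 12 columns of per-sample values, 11 matched a sample title. The remaining 1 column was not used, and 1 Il10-/- sample (replicate 4) had no matching column. Of 114059 listed lines, 866 repeated a transcript and were dropped, and abundances were summed by gene identifier. Genes above 1 in at least 5 libraries (13561) were tested with limma 3.58.1 in R 4.3.3 (trend and robust moderation) on log2(value + 0.5), p-values adjusted over all of them; a fold change on that scale understates the change of low genes. Single values were tested with exact permutations of the libraries. Scripts were tested on simulated data. The genes named are the 10 members, the 3 genes of smallest p in each companion list (1 of them is not reported here), the 2 genes most correlated with each member (unnamed gene models left out) and Tnfrsf1a; Hoxb13, Hoxd13, Car1, Fxyd4, Ano1, Slc16a1, Slc9a3r1, the values of Best2 by library and the transcript shares were picked after their values were seen. The members and lists were chosen with earlier results of these data known. Alternatives were other scalings, pseudocounts of 0.1 and 1, other filters, covariates and leaving out each library. Loci are from GENCODE M21 (mm10) and promoters from RefSeq.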

Additional observations from a re-analysis of the deposited data

Results flagged for a closer look

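Within each genotype, the gap between the highest or lowest library and its nearest neighbour was divided by the whole range, for the 10 transporters on the scale of the deposited abundance and for the absorptive minus secretory value on the log2 scale. Of 22 sets of values, 11 had 1 library past Dixon's 95% critical value, where chance gives about 1 in 20 if values are normally distributed. On the log2(value + 0.5) scale used for the tests, added after seeing the data, 5 sets had a library past it. They were 3 of the 11, namely Scnn1b (0.809 of the range) and Slc26a3 (0.709) in Il10-/- Tnfr1-/- colons and the absorptive minus secretory value in Il10-/- colons, and 2 others: Slc12a2 in Il10-/- Tnfr1-/- colons, where replicate 6 was low (0.631), and Slc9a2 in Il10-/- colons, where replicate 1 was low (0.8). The values that follow are on the scales named first. In Il10-/- Tnfr1-/- colons replicate 3 was the far one, on the high side, for Scnn1a (0.735 of the range), Scnn1b (0.874), Scnn1g (0.662) and Atp12a (0.827). Replicate 6 was the far one, also high, for Slc26a3 (0.937), Slc9a2 (0.652) and Aqp8 (0.79). In Il10-/- colons replicate 1 was far above the others for Scnn1a (0.807), Scnn1g (0.801) and Atp12a (0.907), and replicate 2 was far below them for the absorptive minus secretory value (0.721). The sets are not independent, since the same few libraries recur.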

How the results depend on the processing

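No paired analysis was possible because replicate numbers follow the order of the samples and pair no mice. No transporter and no transporter transcript was called under any alternative run, and the absorptive minus secretory difference moved by less than the spread of the libraries, between -1.20 and -0.53. The count of all genes called was 0 in the reported fit, 1 with quantile normalization, and 0 to 2 when each library was left out in turn (2 without Il10-/- replicate 2). The count at an unadjusted p under 0.05, 1131 as reported, was 745 without Il10-/- replicate 5, 474 without replicate 6, 1717 without replicate 2 and 2450 without replicate 1 of that genotype; it was 243 with the leading digit of the sample name as a covariate, 126 in names starting with 1, 620 with the smooth muscle covariate, 2132 with a posterior Hox covariate and 1756 with Il10-/- Tnfr1-/- replicate 3 and Il10-/- replicate 1 left out. The direction turned for Slc9a3 with equal totals per library (0.0017), for Aqp8 with quantile normalization (0.10) or its leading transcript alone (0.43), and for Slc26a3, Slc9a3 and Aqp8 with the first digit of the sample name as a covariate (0.035, 0.32 and 0.47) or in names starting with 1 alone (the same values). These values are the same because only names starting with 1 hold both genotypes. The digit covariate therefore leaves the genotypes to be compared within those names alone, and the fits are not separate evidence. The direction also turned for Slc26a3, Slc9a3 and Aqp8 when smooth muscle score was a covariate (0.99, 0.40 and 0.59) and for Slc26a3 and Aqp8 with the epithelium score (0.22 and 0.061). Chosen after seeing the data, a posterior Hox covariate turned Scnn1g (0.18), and leaving out Il10-/- Tnfr1-/- replicate 3 and Il10-/- replicate 1 together turned Slc26a3 (0.018) and gave Scnn1b a log2 fold change of -0.98. The unadjusted limma p of Scnn1b was 0.0908 with equal totals, 0.105 with the digit covariate, 0.122 in names starting with 1 and 0.0551 with the posterior Hox covariate. Leaving out 1 library brought that p under 0.05 for Atp12a (0.0190, without Il10-/- Tnfr1-/- replicate 3), Slc26a3 (0.0452, without Il10-/- Tnfr1-/- replicate 6) and Cftr (0.0415, without Il10-/- replicate 2). In the same order, 6.09%, 9.94% and 12.7% of all genes had such a p in these fits. With equal totals the unadjusted limma p of Slc9a2 was 0.0339 (log2 fold change 0.83), where 6.76% of all genes had a p under 0.05. Such a p under 0.05 was held by 2 transporters with the smooth muscle covariate, against 4.57% of all genes. It was also held by 2 with the posterior Hox covariate (15.7% of all genes) and by 2 without Il10-/- Tnfr1-/- replicate 3 and Il10-/- replicate 1 (13.2%). Leaving out 1 library, log2 fold changes ranged from -0.80 (without Il10-/- Tnfr1-/- replicate 6) to 0.14 (replicate 3) for Slc26a3, -0.53 (Il10-/- replicate 1) to 0.10 (Il10-/- Tnfr1-/- replicate 3) for Slc9a3 and -0.58 (Il10-/- Tnfr1-/- replicate 6) to 0.11 (replicate 4) for Aqp8; Scnn1a, Scnn1b, Atp12a, Slc9a2, Slc12a2 and Cftr kept their direction, as did Scnn1g in the 6 of 11 such fits where it passed the filter. The exact p of the Slc9a3 transcript share passed 0.05 without Il10-/- replicate 3, 5 or 6 (at most 0.0571) and without the same 2 libraries (0.0714). The cause of these changes was not tested. The median of all genes was 0.05 as deposited, 0.19 with equal totals and -0.01 with median-ratio scaling. Scnn1g could not be tested in 8 alternatives, where it missed the filter. Depth is unknown.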

Other observations

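A few other genes were singled out after their values were seen and are given as values only. Fxyd4, a small FXYD-family membrane protein, was 1.92, 4.07, 5.48, 0, 0.130 and 0.138 in Il10-/- Tnfr1-/- replicates 1 to 6, and 79.1, 0.291, 0.135, 0.304 and 16.0 in Il10-/- replicates 1, 2, 3, 5 and 6. The chloride channel Ano1 was 47.5 in Il10-/- Tnfr1-/- replicate 3 and 72.4 in Il10-/- replicate 1, and at most 18.8 in any other library. In Il10-/- Tnfr1-/- replicate 6 the monocarboxylate transporter Slc16a1 was 177.9 and the exchanger scaffold Slc9a3r1 was 540.6, against at most 56.2 and 151.5 in the other libraries.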
